A study of Mus musculus with 8 samples.

Results

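The genes described here encode the enzymes that remove peroxides, superoxide and reactive electrophiles with glutathione or thioredoxin, together with NRF2 (Nfe2l2), the transcription factor that drives many of them, and its repressor KEAP1. The members were chosen by gene symbol alone: glutathione transferases (Gst and Mgst), glutathione peroxidases (Gpx), peroxiredoxins (Prdx), superoxide dismutases (Sod), thioredoxins (Txn1, Txn2) and their reductases (Txnrd), catalase (Cat), haem oxygenases (Hmox), quinone reductases (Nqo), glutamate-cysteine ligase (Gclc, Gclm), glutathione reductase (Gsr) and synthetase (Gss), sulfiredoxin (Srxn1), Nfe2l2 and Keap1. This gave 59 of the 19301 genes in the expression table, and the rule used no measured value, although it was set with earlier results of these data known.

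The cells were primary mouse tendon stem cells (TSCs), which the study's methods obtained by collagenase digestion of the patellar tendon and growth on plastic, without a stated sort. They were cultured for 4 days in HFHG medium, with high glucose and the saturated fatty acid palmitic acid, or in low glucose medium with DMSO (LG), and mRNA was sequenced with a stranded kit. Each group had 4 libraries, called biological replicates, and neither group carried a gene deletion or transgene. HFHG and LG differed in glucose and in palmitic acid at once, so the effects of the 2 agents cannot be told apart. The deposited values are FPKM (mapped fragments divided by the length of the transcript and the depth of the library), which can be compared between genes as levels per length.

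Glutathione is a tripeptide made from glutamate, cysteine and glycine, and glutathione peroxidases and transferases spend it on peroxides and on electrophiles. Thioredoxin is a small protein that carries electrons from NADPH, through thioredoxin reductase, to the peroxiredoxins and other targets. KEAP1 marks NRF2 for degradation in unstressed cells, and oxidants or electrophiles that modify KEAP1 let NRF2 reach antioxidant response elements in the promoters of its target genes. NRF2 is controlled largely at the level of the protein, which these libraries did not measure.

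The 8 libraries held 34231150 to 37290483 reads on genes, with overlapping ranges in HFHG and LG, and the first principal component, with 81.0% of the variance, separated HFHG from LG. LG replicate 4 stood apart from the other LG libraries on the second component (4.18%), and no call of a member changed without it. Among members without a call, leaving it out took the log2 fold change of Gsto2 from 0.16 to 0.04, of Txnrd2 from -0.15 to -0.10, of Txnrd3 from 0.02 to 0.07, of Prdx4 from 0.02 to 0.05 and of Prdx5 from -0.04 to -0.01, and the limma adjusted p of Sod1 from 0.2002 to 0.0501. Tendon matrix genes were abundant in all libraries (Col1a1 201.9 to 541 FPKM), but the tendon transcription factor Scx (0.983 to 2.88 FPKM) and tenomodulin (Tnmd, 0.22 to 1.19 FPKM) were low. Macrophage and other leukocyte markers were also present, led by Lyz2 at 1615 to 1662 FPKM in HFHG and 1736 to 1811 FPKM in LG. Tendon and leukocyte markers were thus both present. Of the 9 leukocyte markers tested, 8 were lower in HFHG and 0 were higher. Of 7 pericyte and smooth muscle markers, the 5 tested were all higher, but Myh11 and Rgs5 were under 0.5 FPKM in all libraries. Among all genes tested, 34.0% were called higher and 30.8% lower. Of the 14 tendon markers tested, 10 were higher and 2 lower, with a summed FPKM of 4428 to 4478 in HFHG and 3150.0 to 3188 in LG. In such bulk samples, fewer cells of a type and less RNA per cell cannot be told apart.

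Of the 59 members, 51 reached 0.5 FPKM in 4 or more of the libraries and were tested with limma among 11710 genes. At a Benjamini-Hochberg adjusted p below 0.05, 24 members were higher and 17 lower in HFHG, together 41 of 51 (80.4%), where 64.8% of all genes tested passed. By direction, 47.1% of the members were higher against 34.0% of all genes, and 33.3% were lower against 30.8%. With the study's threshold, a log2 fold change beyond 1 in either direction and an unadjusted p below 0.05, 5 members were higher (Gpx3, Sod3, Gstt1, Mgst3 and Mgst2; 3.68% of all genes) and 3 were lower (Gsta3, Srxn1 and Gclc; 1.65% of all genes). The FPKM of HFHG and LG libraries did not overlap for 39 of the 51 members, against 59.2% of all genes. The median log2 fold change was 0.09 in the members and 0.02 in all genes, and the median absolute log2 fold change was 0.34 and 0.25.

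The members thus went both ways. Lower calls outnumbered higher calls for glutathione synthesis and reduction (3 against 1, 4 tested) and for thioredoxins and reductases (3 against 0, 5 tested). The same held for peroxiredoxins with sulfiredoxin (3 against 1, 7 tested) and haem oxygenases with quinone reductases (3 against 1, 4 tested). Higher calls outnumbered lower calls for cytosolic transferases (10 against 3, 16 tested) and for mitochondrial and membrane transferases (4 against 0, 4 tested). Superoxide dismutases and catalase had 3 higher and 0 lower of 4, and the call of Sod2 among them was not stable. Of all genes tested, 34.0% were higher and 30.8% lower. No test was made of the difference between these role groups.

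**Figure D1:**
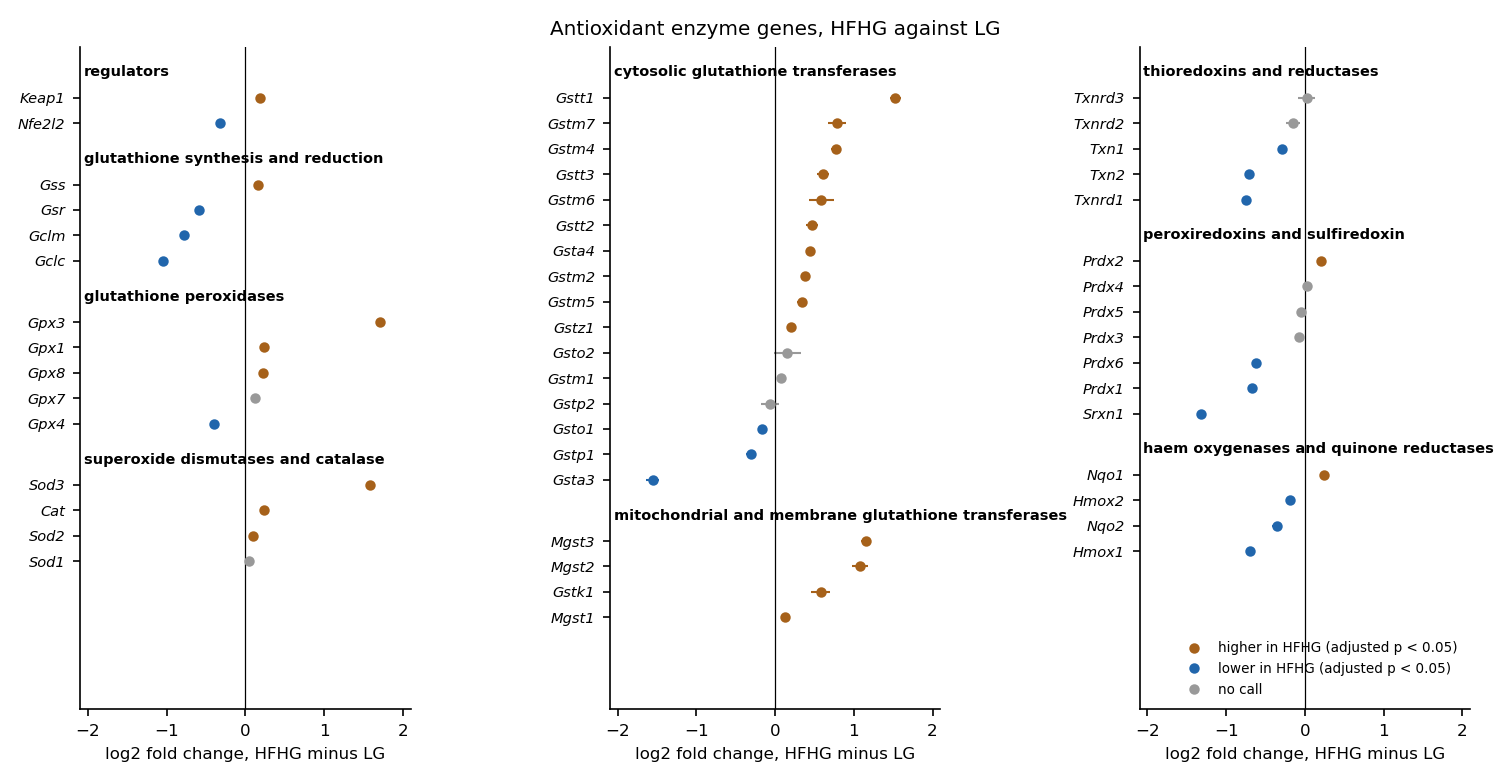
Log2 fold change (HFHG minus LG, x axis) of each of the 51 antioxidant genes tested, grouped by role, with horizontal bars for the standard error. Brown points were higher and blue points lower in HFHG at an adjusted p below 0.05 (24 and 17 genes), and grey points had no call. The thioredoxins and reductases show no brown point and the mitochondrial and membrane transferases no blue point.

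**Figure D2:**
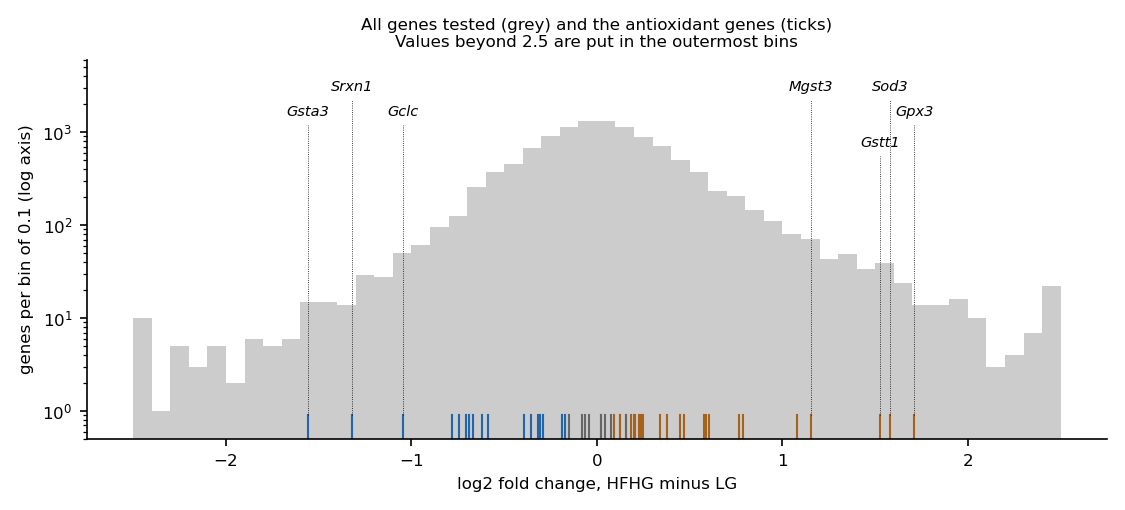
Log2 fold changes (HFHG minus LG, x axis) of the 11710 genes tested, in grey bars with a log axis for the number of genes, and of the antioxidant genes as ticks in the same colours as above. The ticks lie on both sides of 0, and Gpx3 and Gsta3 are the outermost of them at 1.71 and -1.56.

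Among the regulators, Nfe2l2 mRNA was lower and Keap1 mRNA slightly higher in HFHG. Nfe2l2 (chr2:75675513-75704663) was at 64.5, 61.0, 61.2 and 61.7 FPKM in the HFHG libraries and at 74.7, 78.6, 78.7 and 77.8 FPKM in the LG libraries. The groups did not overlap, and the log2 fold change was -0.32 (SE 0.0286, limma adjusted p = 6.94e-07). Keap1 (chr9:21229730-21239332) was at 15.8, 16.0, 16.1 and 16.9 FPKM in HFHG and at 14.7, 14.2, 13.5 and 14.6 FPKM in LG. Its difference was small beside that of Nfe2l2, with a log2 fold change of 0.18 (SE 0.0405, limma adjusted p = 0.00152). The ratio of Nfe2l2 to Keap1 within a library fell from 5.44 ± 0.309 in LG to 3.84 ± 0.185 in HFHG (SD, n = 4, exact permutation p = 0.0286, adjusted over 8 ratios 0.0327). With 4 against 4 libraries and 70 arrangements, 0.0286 is the smallest p this test can give. Nfe2l2 was lower and Keap1 higher in each HFHG library than in any LG library, so their ratio had to separate the groups. Its p is therefore no further support.

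The genes of glutathione synthesis and reduction were lower in 3 of 4 cases and higher in 1, where 30.8% and 34.0% of all genes tested were so called. Glutamate-cysteine ligase performs the rate-limiting step, and its catalytic subunit Gclc (chr9:77754535-77794489) was at 11.7, 12.3, 11.5 and 11.2 FPKM in HFHG and at 23.9, 24.4, 24.8 and 23.6 FPKM in LG. Every LG library thus held about 2.06 times the HFHG level, with a log2 fold change of -1.04 (SE 0.0385, limma adjusted p = 1.52e-10). The modifier subunit Gclm (chr3:122245487-122267215), which raises the efficiency of the catalytic subunit, was at 57.7, 57.6, 58.3 and 55.9 FPKM in HFHG and at 99.1, 101.3, 99.1 and 95.6 FPKM in LG. The groups were far apart, and the log2 fold change was -0.78 (SE 0.0266, limma adjusted p = 6.90e-11). Gclm fell less than Gclc, so the ratio of Gclm to Gclc rose from 4.09 ± 0.0732 to 4.92 ± 0.169 (SD, n = 4, exact permutation p = 0.0286).

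Glutathione reductase (Gsr), which returns oxidised glutathione to its reduced form with NADPH, was at 13.5, 11.6, 13.5 and 13.1 FPKM in HFHG and at 19.1, 19.3, 20.2 and 19.0 FPKM in LG. It was lower in each HFHG library than in any LG library (log2 fold change -0.59, SE 0.0505, limma adjusted p = 4.65e-07). Glutathione synthetase (Gss), which adds glycine in the last step, went the other way at 34.9 ± 0.753 against 31.4 ± 0.443 FPKM (SD, n = 4), a log2 fold change of 0.16. Gclm remained the most abundant of these 4 mRNAs and gave 49.1% of their summed FPKM in HFHG and 56.9% in LG.

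Genes for the import of cystine, the source of cysteine for glutathione, were lower as well. Slc7a11 and Slc3a2, the light and heavy subunits of the cystine importer, and Anpep, an aminopeptidase that takes part in the breakdown of extracellular glutathione, had the largest changes of a list of 20 other tested genes of glutathione handling. Slc7a11 was at 3.28 to 3.56 FPKM in HFHG and 8.98 to 11.99 FPKM in LG (log2 fold change -1.58, limma adjusted p = 2.07e-09). Slc3a2 (13.4 to 14.6 against 33.3 to 36.1 FPKM, log2 fold change -1.31) and Anpep (17.6 to 19.1 against 48.4 to 52.0 FPKM, log2 fold change -1.44) were also separate between the groups. In the list as a whole, 7 genes were higher and 8 lower, where 34.0% and 30.8% of all genes tested were so called.

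The glutathione peroxidases were mixed, and the secreted Gpx3 had the largest log2 fold change of the members. Gpx3 (chr11:54902854-54910387), the peroxidase found in plasma and in extracellular fluid, was at 95.9, 94.1, 93.3 and 90.0 FPKM in HFHG and at 28.2, 26.9, 27.5 and 31.3 FPKM in LG. All HFHG libraries stood about 3.27 times above the LG libraries, with a log2 fold change of 1.71 (SE 0.0434, limma adjusted p = 5.01e-12), and 0.751% of all genes tested had a higher fold change. Gpx4 (chr10:80047166-80056439), which reduces lipid peroxides within membranes and is the enzyme that holds off ferroptosis, was at 195.8, 200.3, 196.1 and 190.6 FPKM in HFHG and at 251, 253, 252 and 274 FPKM in LG. It was lower in HFHG by a log2 fold change of -0.39 (SE 0.0299, limma adjusted p = 1.39e-07), and without LG replicate 4, its highest library, the value was -0.36. Gpx1, the abundant peroxidase of the cytosol, was higher at 146.7 ± 4.97 against 124.8 ± 5.06 FPKM (SD, n = 4, log2 fold change 0.23).

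The ratio of Gpx4 to Gpx1 within a library therefore fell from 2.06 ± 0.0141 to 1.33 ± 0.0530 (SD, n = 4, exact permutation p = 0.0286). Both genes separated the groups in opposite directions, so this p followed from them and is no further support. Of the peroxidases of the endoplasmic reticulum, Gpx8 was higher (149 ± 2.70 against 127 ± 5.65 FPKM, log2 fold change 0.23) and Gpx7 had no call (21.8 ± 1.69 against 20.01 ± 0.846 FPKM, limma adjusted p = 0.0587). The share of Gpx3 in the summed FPKM of the family rose from 5.10% to 15.4%, and that of Gpx4 was 46.1% in LG and 32.3% in HFHG.

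Most of these peroxidases and the thioredoxin reductases are selenoproteins, in which a TGA codon is read as selenocysteine and sits in the active site. The annotated transcripts of 7 members (GENCODE M21) hold such a codon within the reading frame. The coding sequence around it is shown for the 6 that were tested, with the TGA in capitals, because these enzymes share one residue and did not move together. The codon is number 47 of 201 residues in Gpx1, 73 of 226 in Gpx3 and 129 of 253 in the Gpx4 transcript read here. Its number can differ between transcripts of a gene. In the reductases it is the last codon but one, so that only 1 further codon follows.

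Gpx1: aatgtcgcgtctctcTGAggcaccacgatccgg
Gpx3: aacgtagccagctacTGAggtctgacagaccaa
Gpx4: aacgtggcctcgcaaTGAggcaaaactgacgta
Txnrd1: ctccagtctggctgcTGAggt
Txnrd2: actgtgactggttgcTGAggc
Txnrd3: actcagaaaggctgcTGAggc

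Of these 6, Gpx3 and Gpx1 were higher, Gpx4 and Txnrd1 were lower, and Txnrd2 and Txnrd3 had no call. The mRNA level was measured, and the efficiency with which the TGA was read was not.

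Cytosolic glutathione transferases, which couple glutathione to electrophiles, were the largest role group, with 21 genes in the table and 16 tested. Of these, 10 were higher, 3 were lower and 3 had no call, where 34.0% of all genes tested were called higher and 30.8% lower. The genes lie in clusters of near-identical copies, and how the authors assigned reads among copies is not given in the sources used here, so the values of single Gstm, Gsta, Gstp and Gstt genes are uncertain.

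The theta class had the largest increase among them. Gstt1 (chr10:75783813-75798584) was at 11.5, 10.2, 11.1 and 9.12 FPKM in HFHG and at 3.67, 3.41, 3.71 and 3.46 FPKM in LG. The lowest HFHG library stood well above the highest LG library, and the log2 fold change was 1.53 (SE 0.0715, limma adjusted p = 1.44e-09). Its neighbours in the cluster were also higher. Gstt3 (chr10:75774117-75781422) was at 13.9, 12.6, 11.9 and 11.2 against 7.45, 7.62, 8.89 and 8.54 FPKM (log2 fold change 0.61, limma adjusted p = 1.07e-05). Gstt2 (chr10:75831842-75837419) was at 7.84 ± 0.672 against 5.64 ± 0.414 FPKM (SD, n = 4, log2 fold change 0.47). Between them, Gstt4 stayed under 0.1 FPKM in every library.

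In the mu class cluster on chromosome 3, 5 of 6 tested genes were higher, where 34.0% of all genes tested were so called. The near-identical copies may share reads, so their calls may not be independent. Gstm4 (chr3:108030571-108045179) was at 7.59, 7.83, 8.25 and 7.26 FPKM in HFHG and at 4.69, 4.57, 4.56 and 4.17 FPKM in LG (log2 fold change 0.77, SE 0.0586, limma adjusted p = 1.44e-07). Gstm7 (chr3:107926334-107931877) was at 2.36, 2.49, 2.76 and 1.83 FPKM against 1.17, 1.32, 1.37 and 1.38 FPKM (log2 fold change 0.79, SE 0.118, limma adjusted p = 7.21e-05). Neither gene's groups overlapped, whereas those of Gstm6 (chr3:107938847-107953641) did, at 4.27, 2.49, 4.02 and 3.13 against 2.64, 2.05, 1.82 and 2.507 FPKM. Gstm6 passed the limma test (log2 fold change 0.59, adjusted p = 0.00614), but not the exact permutation test (p = 0.0857). The more abundant Gstm2 (110 ± 3.01 against 84.8 ± 3.22 FPKM, log2 fold change 0.38) and Gstm5 (47.4 ± 4.47 against 37.3 ± 2.40 FPKM, log2 fold change 0.34) were also higher, and Gstm1 had no call at 65.9 ± 0.809 against 62.6 ± 4.57 FPKM.

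The alpha class was split between its members. Gsta3 (chr1:21240565-21265575), which also takes part in the isomerisation of steroid precursors, was at 1.81, 1.404, 1.58 and 1.70 FPKM in HFHG and at 5.15, 5.04, 5.02 and 4.60 FPKM in LG. It had the largest decrease of the members, with a log2 fold change of -1.56 (SE 0.0832, limma adjusted p = 4.87e-09), at a low level. Gsta4 (chr9:78191966-78209349), which acts on the lipid peroxidation product 4-hydroxynonenal, was higher at 65.2 ± 2.15 against 47.8 ± 1.71 FPKM (SD, n = 4), a log2 fold change of 0.45 (limma adjusted p = 1.39e-07). The Gsta1 and Gsta2 transcripts were under the limit for testing.

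The 2 most abundant transferases of the cytosol were lower. Gsto1 (chr19:47854973-47864790), an omega class enzyme with thiol transferase activity, was at 223.4, 216.4, 223.1 and 216.8 FPKM in HFHG and at 241, 237, 250.05 and 263 FPKM in LG (log2 fold change -0.17, SE 0.0310, limma adjusted p = 0.000359), with a log2 fold change of -0.09 under quantile normalization. Gstp1 (chr19:4035411-4037912), the main pi class enzyme, was at 199.6 ± 14.1 against 247 ± 20.8 FPKM (SD, n = 4, log2 fold change -0.31). Gstz1, which also acts in tyrosine breakdown, was higher (5.92 ± 0.198 against 5.14 ± 0.130 FPKM, log2 fold change 0.20, and 0.13 under quantile normalization), and Gsto2 and Gstp2 had no call (limma adjusted p = 0.442 and 0.647). The summed FPKM of the cytosolic transferases was 768 ± 26.6 in HFHG and 770.3 ± 31.4 in LG, and the libraries of the groups overlapped.

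All 4 transferases of mitochondria and membranes were higher, where 34.0% of all genes tested were so called. The MAPEG proteins Mgst2 and Mgst3 also act on leukotriene precursors. Mgst3 (chr1:167371966-167393841) was at 12.2, 12.4, 11.4 and 11.5 FPKM in HFHG and at 4.76, 5.80, 4.99 and 5.58 FPKM in LG (log2 fold change 1.16, SE 0.0648, limma adjusted p = 7.73e-09). Mgst2 (chr3:51636912-51682675) was at 2.42, 2.12, 2.512 and 2.04 FPKM in HFHG and at 1.01, 1.13, 1.01 and 0.917 FPKM in LG (log2 fold change 1.08, SE 0.101, limma adjusted p = 1.01e-06). No library of either gene crossed between the groups. With a pseudocount of 1 in place of 0.1, the log2 fold change of Mgst2 was 0.69.

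Mgst1, the most abundant enzyme of this kind, changed little in relative terms (96.4 ± 1.07 against 88.4 ± 1.90 FPKM, log2 fold change 0.12, limma adjusted p = 0.000645, and 0.19 under quantile normalization). The kappa class enzyme Gstk1, found in mitochondria and peroxisomes, was at 12.2, 12.003, 12.2 and 13.7 FPKM in HFHG and at 8.37, 6.72, 7.65 and 11.2 FPKM in LG. LG replicate 4 was the highest of its group, and the log2 fold change of 0.58 (SE 0.119, limma adjusted p = 0.000921) was 0.72 without it.

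**Figure D3:**
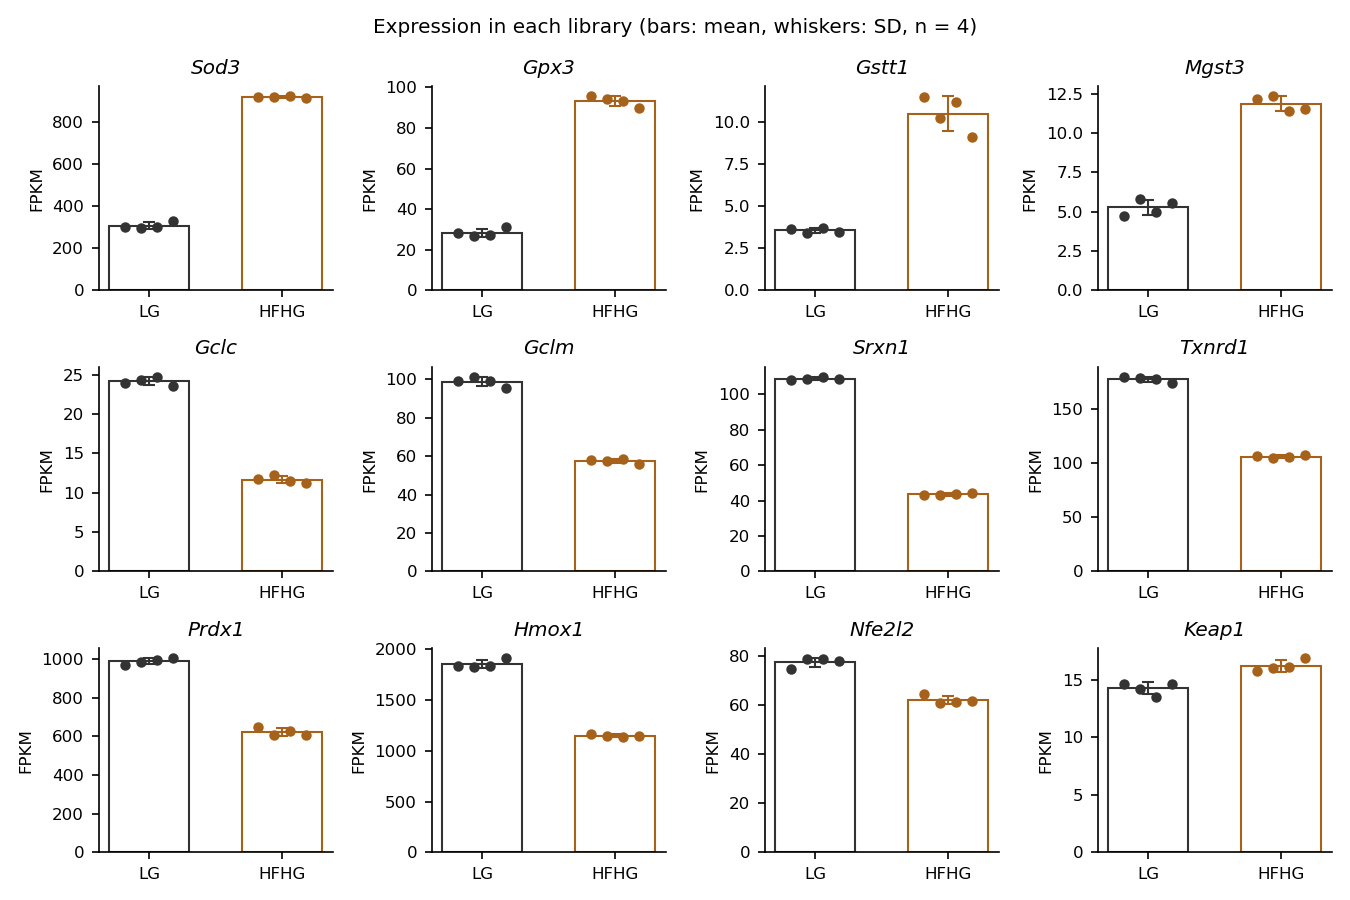
FPKM (y axis, linear and from 0) of 12 antioxidant genes in each of the 4 LG (black) and 4 HFHG (brown) libraries, with bars for the mean and whiskers for the SD. Sod3, Gpx3, Gstt1 and Mgst3 are higher in every HFHG library, and Gclc, Gclm, Srxn1, Txnrd1, Prdx1, Hmox1 and Nfe2l2 are lower in every HFHG library than in any LG library.

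Thioredoxin and its main cytosolic reductase were both lower. Txnrd1 (chr10:82833951-82897724), the cytosolic thioredoxin reductase, was at 107, 105, 106 and 107 FPKM in HFHG and at 180.0, 179, 178 and 174 FPKM in LG. The groups did not come near each other, and the log2 fold change was -0.74 (SE 0.0220, limma adjusted p = 1.99e-11). Thioredoxin itself, Txn1 (chr4:57943373-57956411), was at 174, 168, 164 and 160.4 FPKM in HFHG and at 195, 205, 203 and 212 FPKM in LG (log2 fold change -0.29, SE 0.0313, limma adjusted p = 3.80e-06). Its mitochondrial counterpart Txn2 (chr15:77915051-77928994) fell from 97.6, 98.3, 94.7 and 100.6 FPKM in LG to 61.2, 60.7, 61.3 and 56.6 FPKM in HFHG (log2 fold change -0.71, SE 0.0317, limma adjusted p = 9.60e-10).

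Txnrd2, the mitochondrial reductase, and Txnrd3, known from the testis, were low and had no call (3.64 ± 0.392 against 4.05 ± 0.470 FPKM, and 1.90 ± 0.223 against 1.87 ± 0.209 FPKM). The ratio of Txnrd2 to Txnrd1 rose from 0.0228 ± 0.00284 to 0.0342 ± 0.00336 (SD, n = 4, exact permutation p = 0.0286). The members of this role summed to 330.3 to 348 FPKM in HFHG and 479 to 494 FPKM in LG.

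The inhibitor of thioredoxin, Txnip, which is known as a target of glucose-sensing transcription factors, moved in the other direction and by far more. It was at 193, 187, 187 and 186 FPKM in HFHG and at 2.85, 3.30, 2.90 and 2.63 FPKM in LG (log2 fold change 5.97, SE 0.0550, limma adjusted p = 9.22e-16). Expressed per thioredoxin mRNA, the ratio of Txnip to Txn1 was 0.0144 ± 0.00154 in LG and 1.13 ± 0.0252 in HFHG (SD, n = 4, exact permutation p = 0.0286). In HFHG the inhibitor thus had a higher level per length than its target. Both genes separated the groups in opposite directions, so the p of their ratio is no further support. Of 23 other tested genes of the thioredoxin system, 10 were higher and 9 lower, where 34.0% and 30.8% of all genes tested were so called. The sestrins Sesn3 (4.43 to 5.79 against 1.63 to 1.84 FPKM, log2 fold change 1.5) and Sesn1 (3.21 to 4.76 against 1.91 to 2.21 FPKM, log2 fold change 0.85) had the largest changes after Txnip.

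Of the 6 peroxiredoxins, Prdx1 and Prdx6 were lower, Prdx2 was higher and 3 had no call, where 30.8% of all genes tested were lower and 34.0% higher. Prdx1 (chr4:116685599-116700000), the main cytosolic peroxiredoxin, was at 646, 608, 629 and 607 FPKM in HFHG and at 970.1, 986, 994 and 1007 FPKM in LG. No library crossed between the groups, and the log2 fold change was -0.67 (SE 0.0243, limma adjusted p = 1.28e-10). The size of the Prdx1 difference depended on the scaling, with a log2 fold change of -0.38 under quantile normalization. Prdx6 (chr1:161240112-161251210), which works with glutathione in place of thioredoxin, was at 152, 150.2, 148 and 142 FPKM in HFHG and at 228, 219, 226 and 239 FPKM in LG (log2 fold change -0.62, SE 0.0309, limma adjusted p = 2.55e-09).

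Sulfiredoxin (Srxn1, chr2:152105524-152111376), which repairs over-oxidised peroxiredoxins with ATP, was at 43.0, 42.9, 43.6 and 44.4 FPKM in HFHG and at 108, 109, 110.0 and 109 FPKM in LG. The LG level was 2.5 times the HFHG level, and the log2 fold change of -1.32 (SE 0.0240, limma adjusted p = 2.69e-13) was smaller than that of 99.3% of all genes tested. Prdx2 was higher (145 ± 4.94 against 126 ± 4.55 FPKM, log2 fold change 0.20). The mitochondrial Prdx3 (37.7 ± 2.22 against 39.8 ± 1.04 FPKM), the secretory pathway enzyme Prdx4 (36.6 ± 0.944 against 36.1 ± 1.37 FPKM) and Prdx5 (355 ± 10.3 against 366 ± 21.5 FPKM) had no call. Prdx5 gained one under quantile normalization, as a higher gene. The ratio of Prdx3 to Prdx1 rose from 0.0403 ± 0.00131 to 0.0606 ± 0.00242 (SD, n = 4, exact permutation p = 0.0286).

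Superoxide dismutases turn superoxide into hydrogen peroxide, which catalase and the peroxidases remove. The extracellular enzyme Sod3 (chr5:52363804-52369738), which binds heparan sulfate in the matrix, was at 915, 918, 923 and 911 FPKM in HFHG and at 301, 295, 301 and 329.5 FPKM in LG. It was the most abundant dismutase in both groups and was 2.99 times higher in HFHG, with a log2 fold change of 1.58 (SE 0.0307, limma adjusted p = 5.03e-13). With Gpx3, it made both secreted members higher, and their summed FPKM was 1001 to 1016 in HFHG and 322 to 361 in LG. The largest increases of the tendon markers were log2 fold changes of 1.36 for Col1a1, 1.14 for Thbs4 and 1.06 for Tnc. Dcn and Comp had no call, and Mkx (log2 fold change -0.35) and Egr1 (-0.40) were lower. The part of tendon cells in the higher Sod3 and Gpx3 was not tested.

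The cytosolic Sod1 had no call (225 ± 6.30 against 218 ± 6.72 FPKM, limma adjusted p = 0.2002). The mitochondrial Sod2 was at 68.9, 69.4, 66.7 and 67.5 FPKM in HFHG and at 61.9, 62.3, 64.0 and 67.6 FPKM in LG, with overlapping groups. The log2 fold change of Sod2 was 0.09 (limma adjusted p = 0.0214), and its call was lost under median-ratio scaling (log2 fold change 0.06, adjusted p 0.158) and when HFHG replicate 1 or 2 or LG replicate 1 or 2 was left out (adjusted p 0.0525 to 0.0690), while rescaling to the same sum gave 0.15. The ratio of Sod2 to Sod1 was 0.303 ± 0.0102 in HFHG and 0.293 ± 0.00505 in LG (SD, n = 4, exact permutation p = 0.143). Catalase, the peroxisomal enzyme, was higher in all HFHG libraries (81.7 to 84.4 against 67.8 to 72.3 FPKM, log2 fold change 0.24, limma adjusted p = 7.14e-06). The share of Sod3 in the summed FPKM of these 4 genes was 46.5% in LG and 70.9% in HFHG, and the sum was 660 ± 24.9 in LG and 1293 ± 11.7 FPKM in HFHG (SD, n = 4).

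Hmox1 (chr8:75093618-75100593), the inducible haem oxygenase, was the most abundant member of all. It was at 1167, 1148, 1135 and 1145 FPKM in HFHG and at 1837, 1828, 1838 and 1918 FPKM in LG. The groups were far apart, with a log2 fold change of -0.69 (SE 0.0212, limma adjusted p = 2.74e-11), and the value was -0.67 without LG replicate 4. The constitutive Hmox2 was lower by less (30.3 ± 1.13 against 34.5 ± 0.362 FPKM, log2 fold change -0.19), and the ratio of Hmox1 to Hmox2 fell from 53.7 ± 1.20 to 37.9 ± 1.09 (SD, n = 4, exact permutation p = 0.0286).

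The quinone reductases went apart. Nqo1, which reduces quinones by 2 electrons and is widely read as an NRF2 target, was at 40.3, 41.0, 39.1 and 42.2 FPKM in HFHG and at 33.4, 34.3, 35.1 and 34.1 FPKM in LG, a log2 fold change of 0.25 (SE 0.0318, limma adjusted p = 1.87e-05). All 4 HFHG libraries were above all LG libraries. Nqo2, which uses dihydronicotinamide riboside as its electron donor, was lower (7.60 ± 0.620 against 9.73 ± 0.386 FPKM, log2 fold change -0.36). Haem oxygenase, Prdx1 and other lower members are also known from macrophages, and the leukocyte markers moved the same way: the log2 fold changes were -0.97 for C1qa, -0.69 for Itgam, -0.52 for Adgre1 and -0.11 for Lyz2, with no call for Ptprc (limma adjusted p = 0.0886). The call for Lyz2 was lost under quantile normalization (log2 fold change 0.01, adjusted p = 0.641). The summed FPKM of the leukocyte list was 1727 to 1776 in HFHG and 1898 to 1979 in LG, of which Lyz2 gave the most. Without Lyz2 the sum was 109.9 to 114 FPKM in HFHG and 162 to 169 FPKM in LG. Cd163, Cd3e and Cd79a were under 0.5 FPKM in all libraries. The part of leukocytes in the lower members was not tested.

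**Figure D4:**
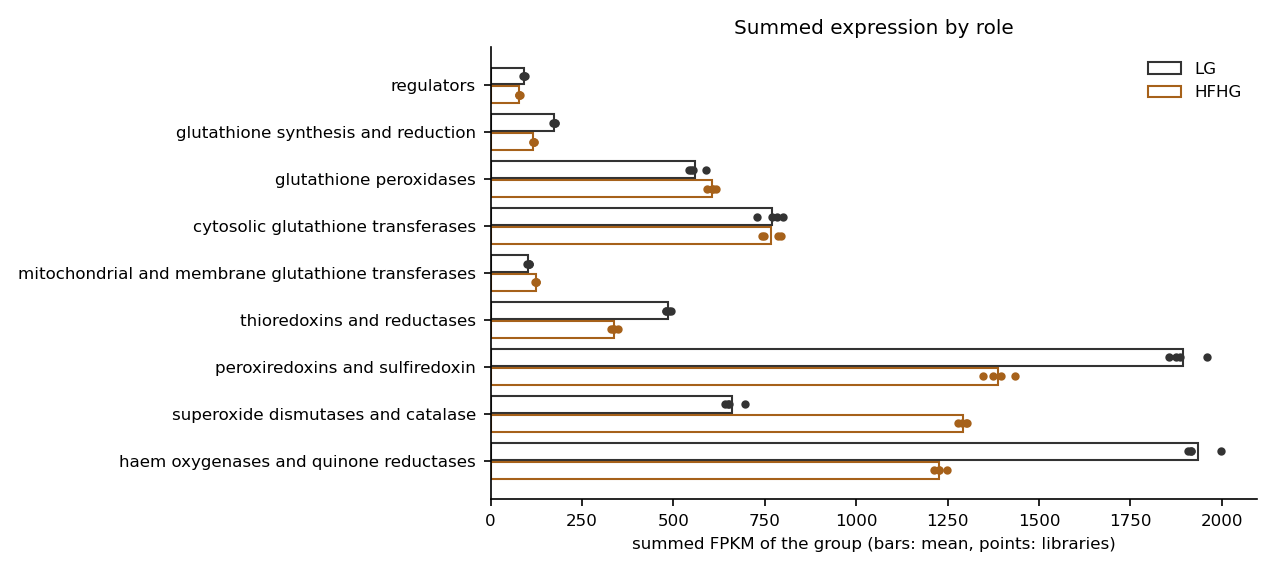
Summed FPKM (x axis, linear and from 0) of each role group in LG (black) and HFHG (brown), with bars for the mean of 4 libraries and a point for each library. The sum for superoxide dismutases and catalase rises from 660 to 1293 FPKM, those for haem oxygenases and quinone reductases, peroxiredoxins and thioredoxins fall, and that for cytosolic transferases overlaps between the groups.

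Summed over all 59 members, the level was 5939 ± 87.7 FPKM in HFHG and 6669 ± 159 FPKM in LG (SD, n = 4). Hmox1 and Sod3 gave the most to this sum in HFHG, and Hmox1 and Prdx1 in LG, so it follows these genes and not the family at large. By place, 5 members listed as mitochondrial (Sod2, Prdx3, Txn2, Txnrd2 and Gstk1) had 2 higher and 1 lower call. The higher call of Sod2 was not stable, and the lower call was that of Txn2. The summed FPKM of the 5 was lower in HFHG (179.9 to 185.9) than in LG (208.3 to 224.3). That list leaves out Prdx5 and Gpx4, which also have mitochondrial forms. The 3 listed for the endoplasmic reticulum (Gpx7, Gpx8 and Prdx4) had 1 higher and 0 lower. Among all genes tested, 34.0% were called higher and 30.8% lower.

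**Figure D5:**
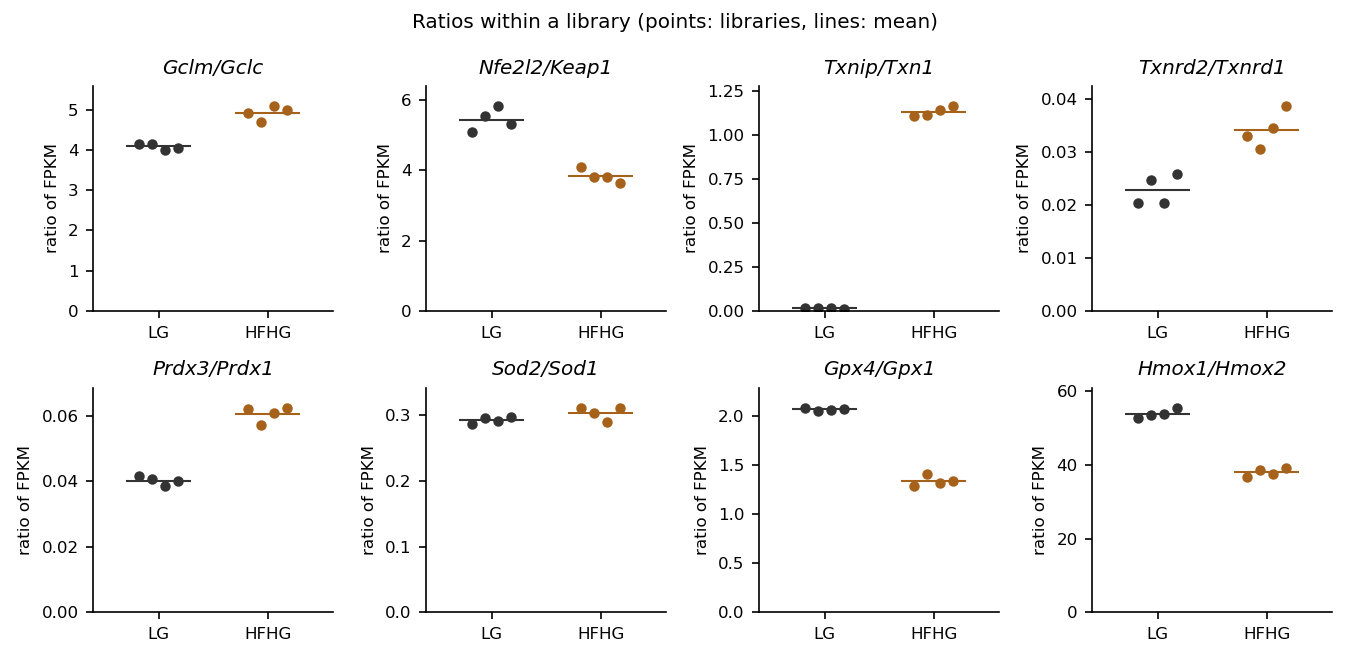
Ratio of the FPKM of the first gene to that of the second (y axis, linear and from 0) within each library, for 8 pairs, with a line at the mean of the 4 LG (black) or HFHG (brown) libraries. Only the ratio of Sod2 to Sod1 overlaps between the groups, and that of Txnip to Txn1 goes from 0.0144 to 1.13.

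Promoters were read for the core of the antioxidant response element, to which NRF2 binds with small MAF proteins. The letters searched were TGACNNNGC on either strand, in windows from 250 bases before to 50 bases after each RefSeq start site (GRCm38.p6). Of the genes with a window, 14.0% of all 27025 and 17.0% of the 9378 tested held a match. The table had no window for Gclc, Gsr, Gsta4, Gstt2, Hmox1, Prdx6 and Sod3, and 10 of the 52 other members had a match (19.2%). By direction, a match stood in 6 of 13 lower members (46.2%), in 3 of 21 higher members (14.3%) and in 1 of 10 members without a call. Genes can have more than 1 window, and counted by window the shares were 28.6% of 21 in lower members, 10.7% of 28 in higher members and 14.4% in all tested genes, with no test of the difference. A match is a description of the letters and not evidence of binding. The windows reach only 250 bases upstream, so a gene without a match may hold one further away.

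For members with a call, the matches upstream of the start site are shown with up to 20 bases on either side. They are on the strand of the gene, with the matching letters in capitals. The lower members come first, since the enzymes of thioredoxin reduction, peroxide removal and glutathione synthesis are among them. The windows are Txnrd1 (chr10:82859094-82859142, plus strand), Prdx1 (chr4:116685446-116685494, plus strand), Gclm (chr3:122245403-122245451, plus strand), Gsta3 (chr1:21240444-21240492, plus strand) and Nfe2l2 (chr2:75704875-75704913, minus strand). The Txnrd1 match lies before an alternative start site far inside the gene, which begins at chr10:82833951. It is counted among the lower members with a match. The match of Srxn1 lay after the start site and is not printed. That of Sod1, the member without a call, lay upstream (TGACCACGC at -56, chr16:90220686-90220734, plus strand) and its flanks are not printed either.

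Txnrd1: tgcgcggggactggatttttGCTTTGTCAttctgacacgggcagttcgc
Prdx1: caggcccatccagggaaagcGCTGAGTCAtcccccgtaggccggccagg
Gclm: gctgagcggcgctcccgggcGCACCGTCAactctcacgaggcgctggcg
Gsta3: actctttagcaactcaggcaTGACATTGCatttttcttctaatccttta
Nfe2l2: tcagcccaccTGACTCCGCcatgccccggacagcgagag

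The higher members with a match were Gstm5 (chr3:107895792-107895840, plus strand), Gstm7 (chr3:107931715-107931763, minus strand) and Mgst1 (chr6:138140451-138140499, plus strand), and they are shown so that the letters can be compared with those of the lower members.

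Gstm5: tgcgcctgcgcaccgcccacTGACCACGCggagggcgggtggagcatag
Gstm7: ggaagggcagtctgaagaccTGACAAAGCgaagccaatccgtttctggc
Mgst1: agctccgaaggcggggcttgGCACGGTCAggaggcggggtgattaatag

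The other genes linked to NRF2 were also split. Of 29 tested, 11 were higher and 13 lower, where 34.0% and 30.8% of all genes tested were so called. The largest changes were those of the aldehyde dehydrogenases Aldh1a1 (50.3 to 52.7 FPKM in HFHG and 4.22 to 4.95 FPKM in LG, log2 fold change 3.46, limma adjusted p = 4.16e-14) and Aldh3a1 (0.253 to 0.597 against 1.28 to 1.90 FPKM, log2 fold change -1.75). At its low level the value of Aldh3a1 depended on the pseudocount and was -0.87 with a pseudocount of 1. The glycine transporter Slc6a9 was lower too (3.63 to 4.41 against 11.3 to 12.2 FPKM, log2 fold change -1.55, and -1.36 with a pseudocount of 1). Among 16 tested regulators and partners of NRF2 other than Keap1, 5 were higher and 6 lower, against the same shares of all genes. The largest change there was that of Mafg, a small MAF partner, with a log2 fold change of -0.39 (16.3 to 16.7 against 21.1 to 22.1 FPKM). The ubiquitin ligase factors Btrc and Cand1 were higher, with log2 fold changes of 0.35 and 0.34.

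NADPH is the electron donor for both glutathione reductase and thioredoxin reductase. Of 16 tested genes of pathways that supply it, 10 were lower and 4 higher, where 30.8% and 34.0% of all genes tested were so called. The lower ones include Pgls, Taldo1, Tkt and Mthfd1l, which belong to these pathways but do not form NADPH themselves. The 4 higher ones were Idh1 (65.7 to 69.8 against 44.2 to 49.7 FPKM, log2 fold change 0.52), Idh2 (0.40), Mthfd2l (0.27) and Me1 (0.09). No test of the list against other genes was made, here or for the other lists. The largest changes were in mitochondrial folate enzymes. Aldh1l2 was at 3.97 to 4.52 FPKM in HFHG and 9.60 to 10.9 FPKM in LG (log2 fold change -1.25), Mthfd2 at 21.2 to 24.3 and 48.6 to 49.8 FPKM (log2 fold change -1.11), and Mthfd1l at 11.9 to 13.2 and 22.8 to 24.4 FPKM (log2 fold change -0.93). Each of the 3 was separate between the groups.

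The 8 members under the limit for testing were Gpx2, Gpx5, Gpx6, Gsta1, Gsta2, Gstm3, Gstp3 and Gstt4. Their groups overlapped in every case, and the lowest exact permutation p was 0.0857, for Gsta1 and Gsta2. Gsta1 was at 0.155 to 0.427 FPKM in HFHG and 0.393 to 0.711 FPKM in LG, from 40 and 73 reads in all. Gsta2 was at 0.0292 to 0.430 FPKM and 0.241 to 0.626 FPKM, from 30 and 59 reads. The other 6 had at most 24 reads summed over the 4 libraries of a group, and a difference in them was not detectable at this depth.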

How the data were processed

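Primary mouse TSCs cultured in HFHG or LG medium were compared, with 4 libraries per group assigned by the sample labels. The authors deposited FPKM for 19301 genes in each library, with replicates not pooled. The submitters' processing notes name HISAT2 2.1.0 and mm10, and the counting program and annotation are not given in the sources used here. FPKM are not counts, so the comparison was a limma fit (version 3.58.1, R 4.3.3) of log2(FPKM + 0.1) with an intensity trend in eBayes and no covariates, over the 11710 genes that reached 0.5 FPKM in 4 or more libraries. Fold changes on this scale understate those of low genes. Benjamini-Hochberg adjustment was over all genes tested. Ratios and genes under the limit were compared with exact two-sided permutation tests (scipy 1.17.1). The fit was tested on simulated data.

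Whole reads could be recovered from the FPKM for 19301 of 19301 genes (tolerance 1e-12 of the value), with 34231150 to 37290483 reads per library. They served for depth and for a voom fit added after the data were seen. No 2 libraries agreed within sampling noise. Values of the same replicate number did not deviate together (correlations -0.0736 to -0.00558), so numbers were not treated as pairs. P-values measure the spread between libraries, and nothing in the labels says that these came from separate animals.

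The members and the lists of other pathway genes and cell markers were chosen with earlier results of these data known. Log2 fold changes with adjusted p are given for Nfe2l2, Keap1 and the most abundant member of each role. They are also given for members with an absolute log2 fold change of at least 0.5 and an adjusted p below 0.05. Of each pathway list, the 3 largest changes at an adjusted p below 0.05 are named, whatever their size. Several of these have a log2 fold change without SE or adjusted p. The values by library of Sod2 and Nqo1, and the single cell markers named, were chosen after they were seen. Gene positions and promoters come from RefSeq (GRCm38.p6), matched by NCBI gene number, with positions for all 59 members. Alternatives were other pseudocounts, filters and scalings, a replicate block, a robust fit and leaving out each library.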

Additional observations from a re-analysis of the deposited data

Results flagged for a closer look

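In 102 groups of 4 libraries (51 genes in 2 groups), 7 held a library whose distance from the nearest of the others took up most of the range of the group, where chance flags about 1 in 20 groups, or 5.1 here. Of these, 2 were in LG replicate 4, the library that stood apart over all genes: Gpx4 at 273.508 FPKM (others 251 to 253) and Hmox1 at 1918.38 FPKM (others 1828 to 1838). In LG replicate 2, Gsta4 was at 45.2512 FPKM (others 48.5 to 48.9), and in LG replicate 3, Prdx3 was at 38.2764 FPKM (others 40.2 to 40.5). In HFHG replicate 4, Gstk1 was at 13.7407 FPKM (others 12.003 to 12.2) and Txn2 at 56.6057 FPKM (others 60.7 to 61.3). In HFHG replicate 1, Txnrd3 was at 2.23668 FPKM (others 1.79 in each).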

How the results depend on the processing

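Over 18 alternatives, 42 of the 51 members kept their direction and their side of the adjusted p of 0.05, and 40 of the 41 called members kept their call, with Sod2 as the exception. Members called higher numbered 23 to 28 and lower 17 to 18, and other pathway genes 38 to 49 and 53 to 65 (45 and 61 as reported). With the replicate block, 24 members were higher and 17 lower, as without it, so the block changed no call of a member, and among the other pathway genes it left 40 higher and 59 lower calls. The median log2 fold change of the members, 0.09 as reported, was 0.15 after rescaling to the same sum and 0.0557 with median-ratio scaling. Only members without a call changed sign: the log2 fold change of Gstp2 ran from -0.143 to 0.0273 when single libraries were left out and was above 0 without HFHG replicate 1; the log2 fold change of Prdx4 was -0.0138 with median-ratio scaling; the log2 fold change of Prdx5 was 0.0161 after rescaling to the same sum and 0.197 with quantile normalization; and the log2 fold change of Txnrd3 was -0.0115 with median-ratio scaling, -0.103 with quantile normalization and -0.0529 to 0.0704 when single libraries were left out, below 0 without HFHG replicate 1 or LG replicate 3. The cause was not tested. The ratios within a library kept their direction in every alternative, but many alternatives cannot change them. Scaling by a factor per library, the filters, the replicate block and the robust fit leave such a ratio as it is. Leaving out a library or pairing by number leaves too few arrangements for their permutation test to reach 0.05. At the depth of these libraries, genes under 0.5 FPKM rested on few reads, and near-identical transferase genes may share reads.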

Other observations

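Of 20 tested NADPH oxidase and other oxidant source genes, 10 were lower and 4 higher in HFHG, where 30.8% of all genes tested were lower and 34.0% higher, and the difference was not tested. Ero1a, the oxidase that drives disulfide formation in the endoplasmic reticulum and yields hydrogen peroxide, was at 203, 201, 204 and 204 FPKM in HFHG and at 589, 607, 599 and 555 FPKM in LG (log2 fold change -1.53, SE 0.0274, limma adjusted p = 2.68e-13). Nox3 was low throughout (0.0747 to 0.275 against 0.972 to 1.48 FPKM, log2 fold change -2.24, and -0.91 with a pseudocount of 1), and the aldehyde oxidase Aox1 was higher (3.04 to 3.26 against 1.49 to 1.70 FPKM, log2 fold change 0.95).

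Of 11 genes of selenoprotein synthesis and selenium transport, 4 were higher and 5 lower, where 34.0% and 30.8% of all genes tested were so called. Selenop, the secreted carrier of selenium, was at 115, 109, 109 and 113 FPKM in HFHG and at 53.0, 54.5, 51.9 and 51.3 FPKM in LG (log2 fold change 1.08, SE 0.0286, limma adjusted p = 7.03e-12). Secisbp2l was also higher (31.2 to 31.9 against 19.0 to 23.8 FPKM, log2 fold change 0.53), and Pstk passed the test (log2 fold change 0.42, limma adjusted p = 0.00352) although LG replicate 4, at 7.62 FPKM, lay within the range of HFHG.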
